A study of Mus musculus with 221 samples.

Results

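The tRNA genes described here are the 10 on the plus strand of the mouse mitochondrial genome between mt-Nd1 and mt-Cytb. They were taken by strand and position from a count table of 55291 genes, of which 37 are mitochondrial and 22 of those encode tRNAs. The embryos were single early 2-cell embryos, 99 sired by males on a low-fat diet (LFD) and the rest by males on a high-fat diet (HFD), of which 38 are numbered 31 to 70 in the titles and 84 have other numbers. Sperm of young adult C57BL/6N males, kept on either diet for a short period, had fertilized, in vitro, oocytes with a C57BL/6N nuclear genome and the mitochondrial DNA of the Staudach (ST) line, and embryos were frozen after a night in culture. All embryos therefore shared the nuclear background and the maternal mitochondrial genome, and the groups were defined by the diet of the sire. The labels do not give the sex of an embryo, and the summed level of 7 Y-linked genes had a median of 42.8 counts in each 1000000 counts of an embryo (CPM) in HFD and 11.4 in LFD embryos. Per the study's methods, thawed sperm of a few males of each diet was used, with other males on each date. The labels tie no embryo to a sire or date, so embryos were treated as replicates, variation between sires is not in the p-values, and a sire cannot be told apart from his diet.

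Libraries were made by Smart-seq2, which copies polyadenylated RNA from a single cell or embryo and amplifies it by PCR. Total counts ran from 1937251 to 17246791 per embryo with a median of 5706066. All 11 marker genes of oocytes and 2-cell embryos (among them Zp3, Dppa3 and Zscan4c) had counts in both diets, with a summed level of 3820 to 14040 CPM in HFD and 4230 to 14350 in LFD embryos. The 11 macrophage markers summed to 13.8 to 6016 CPM in HFD (median 75.9) and to 43.8 to 155.6 in LFD embryos (median 76.4), and C1qc was at 0 in all LFD embryos. The mitochondrial share of the counts was 5.80% ± 2.23 (SD) for HFD embryos, against 4.48% ± 1.66 for LFD. HFD embryos 31 to 70 were known from earlier results of these data to stand apart in mt-tRNA levels. Values are therefore also given without them.

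Both strands of mitochondrial DNA are transcribed into long RNAs that span many genes. On the heavy-strand transcript most mRNAs and the rRNAs are separated by tRNAs, whose excision, at the 5′ end by mitochondrial RNase P and at the 3′ end by ELAC2, releases the RNAs on either side. The mRNAs then receive poly(A) tails and the tRNAs a CCA end. The mature tRNA, folded and without a poly(A) tail, carries its amino acid to the mitochondrial ribosome, where its anticodon reads the codon. A read placed in a tRNA gene may derive from the mature tRNA or from a longer precursor, and the counts do not say which.

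The 10 tRNA genes are printed 5′ to 3′ from the GENCODE M21 transcripts (build GRCm38, plus strand, chromosome MT) to show how short they are and which codon family each serves. Capitals mark the anticodon, found as the letters of the expected triplet in a loop closed by a stem with at least 3 of 5 pairs. These are the C57BL/6J reference letters, while the authors aligned reads to the ST sequence. None of the genes encodes CCA at its end.
mt-Ti (isoleucine, MT:3706-3774): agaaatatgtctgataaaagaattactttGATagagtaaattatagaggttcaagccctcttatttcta
mt-Tm (methionine, MT:3845-3913): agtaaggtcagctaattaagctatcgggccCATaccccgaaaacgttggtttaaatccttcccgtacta
mt-Tw (tryptophan, MT:4950-5016): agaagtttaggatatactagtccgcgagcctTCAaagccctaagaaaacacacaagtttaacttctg
mt-Td (aspartate, MT:6942-7011): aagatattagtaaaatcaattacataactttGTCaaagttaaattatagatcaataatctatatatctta
mt-Tk (lysine, MT:7700-7764): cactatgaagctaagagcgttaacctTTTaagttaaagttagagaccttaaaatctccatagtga
mt-Tg (glycine, MT:9391-9458): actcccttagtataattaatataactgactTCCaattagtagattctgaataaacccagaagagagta
mt-Tr (arginine, MT:9808-9875): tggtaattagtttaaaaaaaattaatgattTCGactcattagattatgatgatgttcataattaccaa
mt-Th (histidine, MT:11546-11612): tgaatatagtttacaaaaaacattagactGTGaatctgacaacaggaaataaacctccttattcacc
mt-Ts2 (serine, AGY codons, MT:11613-11671): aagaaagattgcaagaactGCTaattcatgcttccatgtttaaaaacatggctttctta
mt-Tl2 (leucine, CUN codons, MT:11671-11741): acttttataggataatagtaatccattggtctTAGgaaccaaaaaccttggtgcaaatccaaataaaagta

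The genes are 59 to 71 bases long. mt-Ts2, the serine tRNA that lacks the D arm of other tRNAs, is the shortest, and its anticodon begins at base 20 instead of base 27 to 33. G and C made up 17.1% of mt-Td and 44.9% of mt-Tm, the lowest and highest shares. No stretch of 31 bases of any of the 10 genes occurred in a transcript of a nuclear gene in the same annotation, on either strand. The flanking mRNAs differed in this respect, with 100% of such stretches of mt-Co2, 99.9% of mt-Co3, 98.9% of mt-Nd4l and 98.1% of mt-Nd3 also present in nuclear transcripts, as were 63.9% of mt-Co1, 62.8% of mt-Nd4, 16.8% of mt-Nd5, 13.5% of mt-Nd2, 7.47% of mt-Atp8 and none of mt-Nd1. Reads placed equally well in several places were left out of the counts. The shares hold for the reference sequence of the annotation, whereas the authors aligned reads to the ST sequence. Whether reads of these mRNAs were lost in this way was not tested. The mRNA side of a ratio thus stays uncertain for all of them but mt-Nd1. Nuclear sequence outside annotated transcripts was not searched. Whether reads of the tRNA genes or of mt-Nd1 were left out by this rule was therefore not tested either.

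Few reads fell into these genes. The 10 genes held 26503 counts in all, which was 4.2% of the counts of the 22 mt-tRNA genes and 0.0404% of all mitochondrial counts. Of the 630871 counts of the 22 genes, the minus-strand gene mt-Ts1 alone held 481128, so the share of 4.2% depends largely on that gene. mt-Tm held 47.9% of the 26503, and mt-Ti, mt-Tm and mt-Tw together 87.3%. In each embryo between 2 and 8 of the 10 genes had a count, with a median of 5 in both diets.

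The counts differed widely between genes of nearly the same length, and so did the room that counting left to each gene. By the counting program's default a read that touches 2 genes on the counted strand is left out. A read is then counted for a tRNA gene when it touches that gene and lies within the bases that no other gene of its strand covers. This free window measured 137 to 140 bases for mt-Ti, mt-Tm and mt-Td and 376 for mt-Tw, because each of these has tRNA genes of the minus strand next to it. It measured 58 to 70 bases for mt-Tk, mt-Tg, mt-Tr, mt-Th, mt-Ts2 and mt-Tl2, which lie between genes of the plus strand. The first set had 65 to 12688 counts per gene over all embryos and the second 2 to 2298.

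Each read of a pair was counted by itself, so that an even count arises where both reads of every pair lie in the free window. Among embryos with a count, 50.9% of the counts of mt-Ti, 51.1% of mt-Tm and 47.5% of mt-Tw were even. In the 6 genes with short windows 477 of 481 counts above 0 (99.2%) were even. Among the 3 plus-strand tRNA genes beside the rRNAs, mt-Tf, mt-Tv and mt-Tl1, with windows of 69 to 75 bases, 95.4% were even, against 65.8% over all genes of the table. mt-Td was unlike either set, with 65 counts in a window of 140 bases and 10.5% of its values even. mt-Tm, whose window is shorter by 1 base, had 12688. In the short windows the counts thus came nearly always in pairs, apart from mt-Th with its 2 single counts. In the longer windows even and odd counts were about as frequent, apart from that of mt-Td, where most values were odd. Which RNA molecule gave a count was not tested.

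**Figure D1:**
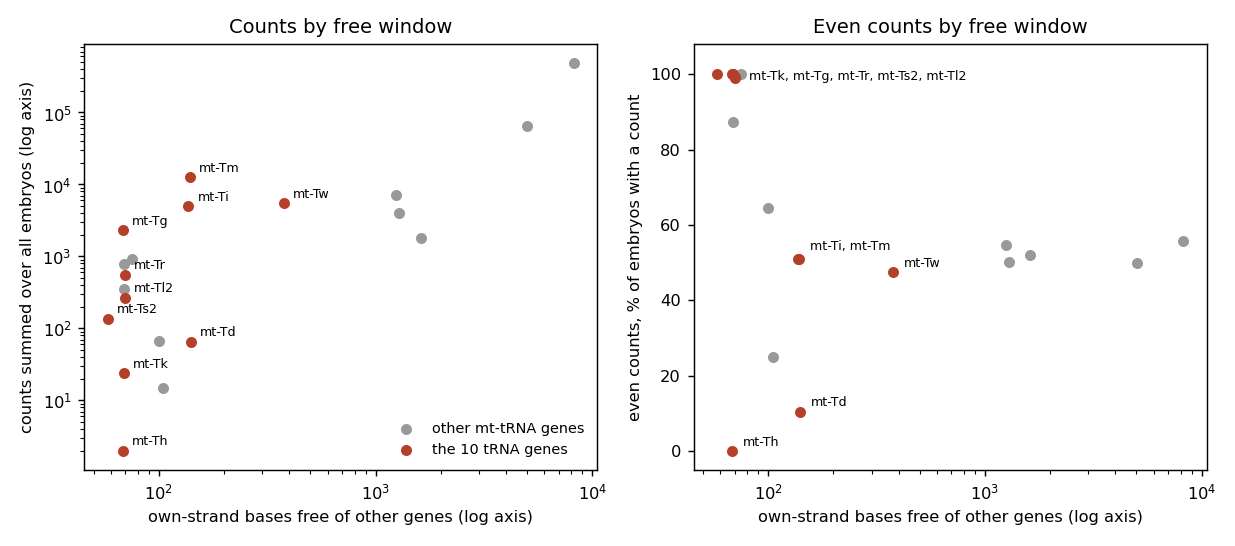
Each point is an mt-tRNA gene, placed by the number of own-strand bases free of other genes (log axis) against its counts summed over all embryos (left, log axis) and the percentage of even values among embryos with a count (right); red points are the 10 genes described, and mt-Tt and mt-Tp, with no gene after them, are left out. The genes with 58 to 70 free bases had 2298 counts or fewer, and of the 10 genes those with such windows had nearly all values even apart from mt-Th, which had 2 counts in all, while mt-Td stood far below mt-Tm at the same width.

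Levels per length, in CPM per kb over all embryos, put the methionine tRNA gene mt-Tm first at a mean of 150, with 193 ± 142 (SD) in HFD and 97.5 ± 52.8 in LFD embryos. It was followed by mt-Tw at 65.1 ± 35.7 (mean ± SD over all embryos), mt-Ti at 58.4 ± 46.4, mt-Tg at 26.3 ± 23.2 and mt-Tr at 6.47 ± 8.68. mt-Tl2 (3.04 ± 4.53), mt-Ts2 (1.79 ± 4.16), mt-Td (0.758 ± 1.42), mt-Tk (0.297 ± 1.53) and mt-Th (0.0282 ± 0.305) closed the order. The order is over both diets: in HFD embryos 31 to 70 the mean of mt-Ti per length lay above that of mt-Tw, which was 83.5 ± 36.2. The window in which reads were counted was also wider for mt-Tw. Every gap between neighbours in this order was smaller than the SD of the higher gene. Within embryos mt-Tm exceeded mt-Tw in 187 and fell below it in 34, and mt-Tg exceeded mt-Tr in 183 and fell below it in 15. The pair mt-Ts2 and mt-Td was even, with 47 embryos on one side and 46 on the other. The mRNA genes beside them had far more counts per length. Their means ran from 1030 ± 780 CPM per kb for mt-Nd2 in LFD embryos to 6490 ± 2390 for mt-Nd1 in HFD embryos. Over summed counts in LFD embryos, 1 count of mt-Tm stood against 159 of mt-Nd2, and 1 count of mt-Tg against 245 of mt-Nd3. Per the study's methods reads were 150 bases long. The free window measured 376 bases for mt-Tw and 140 or fewer for the other tRNA genes described. A read aligned over its full length could thus be counted for mt-Tw and the mRNAs, but not for the other tRNA genes. How much of the gap to the mRNAs arose from this limit was not tested.

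**Figure D2:**
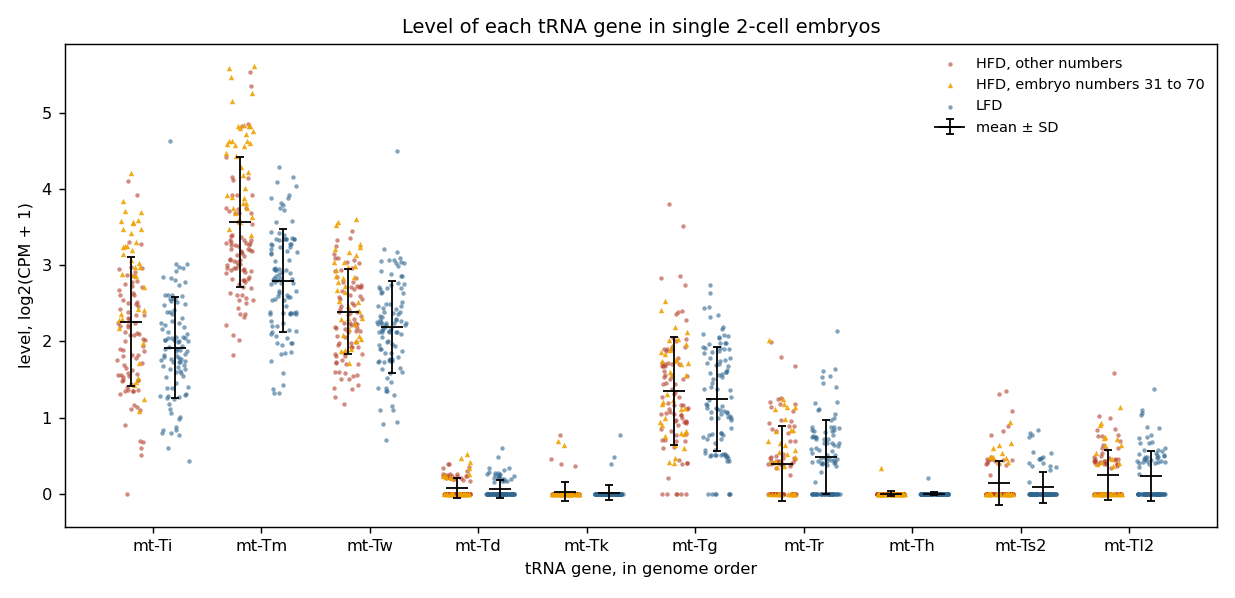
Each point is an embryo, with the level of each tRNA gene as log2(CPM + 1) on the y axis, HFD to the left and LFD to the right of each gene name, HFD embryos 31 to 70 as orange triangles, and the mean ± SD as black bars. mt-Tm was higher in HFD embryos and its triangles lie at the top, whereas most embryos had 0 counts of mt-Td, mt-Tk, mt-Th, mt-Ts2 and mt-Tl2.

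The question put to each gene was whether its level depended on the diet of the sire. Only 4 of the 10 passed the filter on low counts (mt-Ti, mt-Tm, mt-Tw and mt-Tg), and of these 2 were called by edgeR's quasi-likelihood test at a false discovery rate (FDR) under 0.05, both higher in HFD embryos. Of all 14820 tested genes 2.15% were called, and 1.26% were called higher in HFD. The median log2 fold change of the 4 genes was 0.40, against 0.01 over all tested genes, and for the 10 mRNA genes that flank the tRNA genes it was 0.37, with 8 called higher and none lower. The 6 genes at the lowest levels did not pass and were compared by the share of embryos with a count.

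mt-Tm encodes the only methionine tRNA of the organelle, which serves both initiation and elongation. It lies between the minus-strand tRNA gene mt-Tq and the mRNA gene mt-Nd2. Its level ran from 2.55 to 48 CPM in HFD (median 9.21) and from 1.5 to 18.5 in LFD embryos (median 6.03). The groups overlapped, although 27 HFD embryos exceeded every LFD embryo. The log2 fold change was 1.02 ± 0.12 (SE), with an FDR of 1.05e-10 by edgeR. In whole embryos a higher level in each cell and a higher level in only one of the cells cannot be told apart. The level ran from 9.55 to 48 CPM in HFD embryos 31 to 70 (median 21.9), where all 38 exceeded the LFD median and 22 exceeded every LFD embryo. It ran from 2.55 to 45.3 in the other 84 (median 7.73), where 63 exceeded the LFD median and 5 every LFD embryo. Without embryos 31 to 70 the log2 fold change was 0.57 ± 0.12 (FDR 0.00236), and 1.18% of all tested genes were called in that fit. Smart-seq2 does not mark the strand, so reads of mt-Tm or mt-Ti cannot be told apart from those of mt-Tq on the other strand where their windows overlap. The same limit holds for mt-Tw with the minus-strand tRNA genes mt-Ta, mt-Tn, mt-Tc and mt-Ty, and for mt-Td with mt-Ts1.

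mt-Ti, which carries isoleucine, follows mt-Nd1 and overlaps its last bases. Its level ran from 0 to 17.5 CPM in HFD (median 3.73) and from 0.354 to 23.8 in LFD embryos (median 2.72). The highest embryo of all was LFD embryo 26, which was also the highest for mt-Tw, and the diets overlapped over nearly the whole range. The log2 fold change was 0.55 ± 0.14 (FDR 0.0150 by edgeR). Without HFD embryos 31 to 70 it was 0.21 ± 0.15 (FDR 0.730), and with limma-voom it was 0.41 ± 0.15 (FDR 0.138). In embryos 31 to 70 the median was 7.02 CPM, against 3.04 in the other HFD embryos.

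mt-Tw, the tryptophan tRNA whose anticodon also reads the codon that is a stop in the cytosol, lies between mt-Nd2 and a run of 4 minus-strand tRNA genes. Its level ran from 1.26 to 11.2 CPM in HFD (median 4.14) and from 0.635 to 21.6 in LFD embryos (median 3.66). No HFD embryo exceeded the highest LFD embryo, and 72 HFD embryos exceeded the LFD median. The log2 fold change was 0.25 ± 0.11 with an FDR of 0.261 by edgeR, which did not pass the threshold.

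mt-Tg, the glycine tRNA between mt-Co3 and mt-Nd3, had a level of 0 to 13 CPM in HFD (median 1.45) and 0 to 5.71 in LFD embryos (median 1.25). The highest value was that of HFD embryo 16, and 5 HFD embryos, all numbered outside 31 to 70, exceeded every LFD embryo. The log2 fold change was 0.25 ± 0.18, with an FDR of 0.608 by edgeR. Its counts all came in pairs, 208 embryos having an even count and none an odd one.

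Leaving out any single embryo kept the log2 ratio of the mean CPM between 0.95 and 1.01 for mt-Tm, 0.49 and 0.62 for mt-Ti, 0.20 and 0.28 for mt-Tw, and 0.13 and 0.24 for mt-Tg. By medians in place of means the log2 ratios were 0.61, 0.45, 0.17 and 0.21. The difference in mt-Tm was thus larger by means than by medians. With the Y-linked level of each embryo as a covariate the log2 fold change of mt-Tm was 1.0 ± 0.12 (FDR 3.16e-10 by edgeR) and that of mt-Ti 0.54 ± 0.14 (FDR 0.0211). With the macrophage marker level of each embryo as a covariate the log2 fold change of mt-Tm was 1.0 ± 0.13 (FDR 6.5e-10) and that of mt-Ti 0.52 ± 0.15 (FDR 0.0316).

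**Figure D3:**
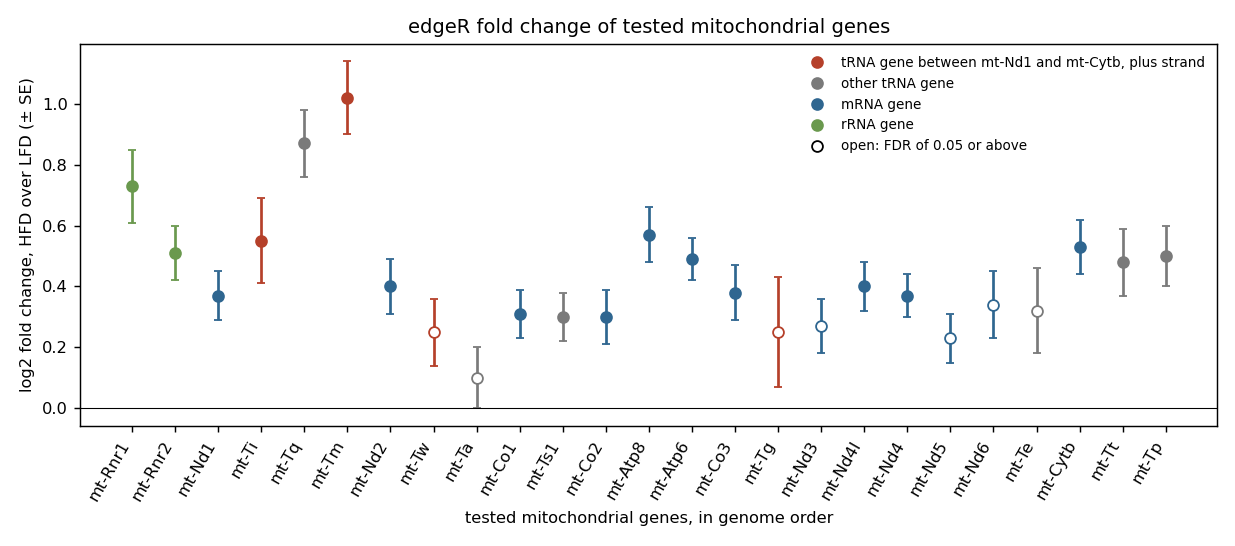
Log2 fold change of HFD over LFD embryos (y axis) with its standard error for each mitochondrial gene that passed the filter, in genome order, from the edgeR fit; colours give the kind of gene and open points have an FDR of 0.05 or above. mt-Tm at 1.02 and its minus-strand neighbour mt-Tq at 0.87 stood at the top, and mt-Tw and mt-Tg at 0.25 lay among the mRNAs.

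The 6 remaining genes could be described by their counts and the embryos that held them. mt-Td, which carries aspartate and lies between mt-Co1 and mt-Co2, had a count in 33 HFD (27%) and 24 LFD embryos (24.2%). The highest count was 3. mt-Tk, the lysine tRNA between mt-Co2 and mt-Atp8, was present in 6 HFD and 3 LFD embryos with 16 and 8 counts in sum. mt-Tr, the arginine tRNA between mt-Nd3 and mt-Nd4l, had a count in 63 HFD (51.6%) and 62 LFD embryos (62.6%), with 283 and 278 counts in sum.

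The last 3 genes, mt-Th, mt-Ts2 and mt-Tl2, form an uninterrupted block between mt-Nd4 and mt-Nd5, in which mt-Ts2 and mt-Tl2 share a base. mt-Th, for histidine, had 1 count in HFD embryo 42 and 1 in LFD embryo 47, and a fold is not given for so few. mt-Ts2 had a count in 30 HFD (24.6%) and 17 LFD embryos (17.2%), up to 8 counts. mt-Tl2, for leucine, had a count in 51 HFD (41.8%) and 39 LFD embryos (39.4%), up to 10 counts. Within this block the summed counts were 2 for mt-Th, 136 for mt-Ts2 and 267 for mt-Tl2.

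No difference in these shares between the diets passed the threshold. By Fisher's exact test, 2-sided and adjusted over the 37 mitochondrial genes, the smallest unadjusted p was that of mt-Tr at 0.104 (11 percentage points lower in HFD), and all adjusted values were 1. The test called 0% of the 37 genes, and no unadjusted p of the 10 genes was under 0.05. When 3 counts were asked for, the share for mt-Tg was 86.9% in HFD and 77.8% in LFD embryos (unadjusted p = 0.106, adjusted p = 0.820). Without a filter, edgeR gave log2 fold changes of 0.18 ± 0.30 for mt-Td, 0.32 ± 0.24 for mt-Tk, -0.20 ± 0.33 for mt-Tr, 0.74 ± 0.37 for mt-Ts2 and 0.10 ± 0.35 for mt-Tl2. None of these 5 passed the FDR threshold, with 15.4% of all genes called in that fit.

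Each tRNA gene was next set against the mRNA gene before and after it in the same embryo, which removes library size. The measure was log2 of the tRNA count over the mRNA count, with 0.5 added to each. Differences of the group means were tested by a 2-sided permutation test with 100000 permutations and adjusted over the 39 ratios of all 22 mt-tRNA genes, of which 23.1% passed 0.05. Of the 20 ratios of the 10 genes 6 passed, and these 20 are among the 39, with mt-Tm higher in HFD against both neighbours and 4 ratios of mt-Tk, mt-Tr and mt-Th lower.

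Against mt-Nd1, whose product is a core subunit of complex I, the log2 ratio of mt-Tm had a mean of -9.08 ± 0.82 (SD) for HFD and -9.60 ± 0.79 for LFD, which differ by 0.52 (adjusted p = 0.000195, permutation test). Against mt-Nd2, another complex I subunit, the means were -6.86 ± 0.71 and -7.32 ± 0.70, which differ by 0.45 with an adjusted p of 0.000195 by the same test. In summed counts this was 941 counts of mt-Tm for each 100000 of mt-Nd2 in HFD and 627 in LFD embryos. Without HFD embryos 31 to 70 the differences were 0.16 and 0.17, with adjusted p of 0.218 and 0.150. The higher ratio of mt-Tm thus did not pass the threshold in the remaining embryos. Embryos 31 to 70 were left out because they were known to stand apart in mt-tRNA levels. A smaller difference without them follows in part from that choice. The mRNAs themselves had log2 fold changes there of 0.35 ± 0.08 for mt-Nd1 (FDR 0.00817 by edgeR) and 0.29 ± 0.10 for mt-Nd2 (FDR 0.174).

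For mt-Ti, whose neighbours were also called higher, the ratio to mt-Nd1 differed by 0.05 (adjusted p = 0.855, permutation test) and that to mt-Nd2 by -0.01 (adjusted p = 0.945). For mt-Tw the difference was -0.16 against mt-Nd2 (adjusted p = 0.178, permutation test) and -0.04 against mt-Co1, a core subunit of cytochrome c oxidase (adjusted p = 0.855). For mt-Tg it was -0.15 against mt-Co3, another subunit of that oxidase (adjusted p = 0.598, permutation test), and -0.07 against mt-Nd3 of complex I (adjusted p = 0.855). None of these 6 ratios passed the threshold.

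For mt-Tr both ratios had lower means in HFD embryos. The log2 ratio to mt-Nd4l, a small subunit of complex I, had an SD of 1.61 over HFD and of 1.53 over LFD embryos, and its means differed by -0.72 (adjusted p = 0.00689, permutation test). That to mt-Nd3 differed by -0.61 (adjusted p = 0.0258). The call for mt-Nd3 was lost with labels permuted within ranges of embryo numbers (-0.52, adjusted p = 0.0934) and with differences within shared numbers (-0.44, adjusted p = 0.192). From summed counts the log2 difference to mt-Nd4l was -0.62 with an adjusted p of 0.0477 by permutation, and that to mt-Nd3 was -0.50 with an adjusted p of 0.139, where 17.9% of the 39 ratios passed. Without HFD embryos 31 to 70 the differences were -0.87 to mt-Nd4l and -0.79 to mt-Nd3 (adjusted p = 0.00302 and 0.00757, permutation test). mt-Tr was at 0 in 59 HFD and 37 LFD embryos, where its ratio also rests on the added 0.5. Among only the embryos with a count of mt-Tr the differences were -0.36 to mt-Nd4l and -0.19 to mt-Nd3. Neither passed there (adjusted p = 0.138 and 0.527, permutation test).

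The 2 other lower ratios rest on the added 0.5 in nearly all embryos. mt-Th had a count in 1 HFD and 1 LFD embryo, and its ratio to mt-Nd4 differed by -0.36 (adjusted p = 0.000195, permutation test). mt-Tk had a count in 6 HFD and 3 LFD embryos, and its ratio to mt-Atp8, a subunit of ATP synthase, differed by -0.41 (adjusted p = 0.00133). In the other embryos the ratio is 0.5 over the mRNA count and by construction follows the mRNA and the depth of the library. By summed counts, with nothing added, the difference for mt-Tk against mt-Atp8 was 0.23 (adjusted p = 0.944) and that for mt-Th against mt-Nd4 was -0.63 on 1 count in each diet (adjusted p = 0.873). The ratios of mt-Td, mt-Ts2 and mt-Tl2 to their neighbours differed by -0.26 to -0.02, that of mt-Tk to mt-Co2 by -0.22 and that of mt-Th to mt-Nd5 by -0.23, and none passed in this test.

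**Figure D4:**
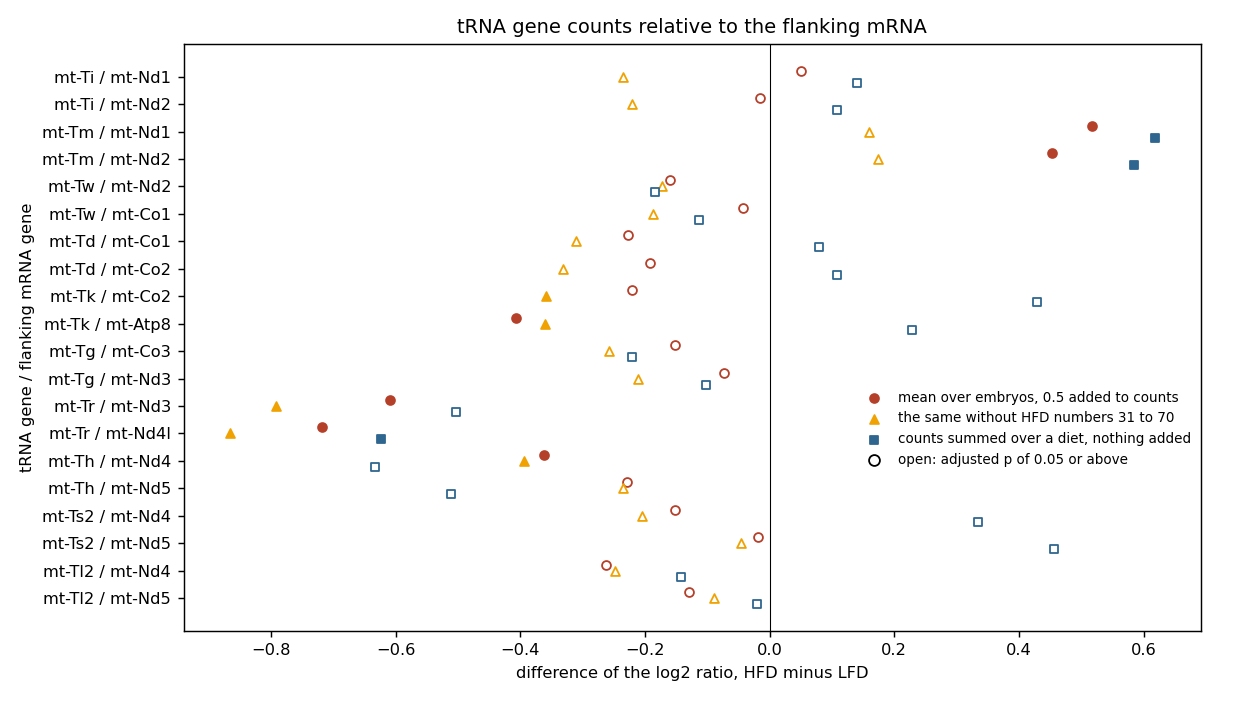
Difference between HFD and LFD embryos in the log2 ratio of each tRNA gene to a flanking mRNA gene (x axis), as the mean over embryos with 0.5 added to counts (circles), the same without HFD embryos 31 to 70 (triangles) and from counts summed over each diet (squares); open symbols have an adjusted p of 0.05 or above. Circle and square for mt-Tm lie to the right of 0 for both neighbours and those for mt-Tr to the left, while mt-Tk changes side between circle and square.

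The embryo numbers of the titles were cut into 11 ranges of 10 in which both diets were present. mt-Tm was higher in HFD in 9 of 11 ranges, with differences of log2(CPM + 1) from -0.09 to 1.85 and a median of 1.0. The 4 ranges from 31 to 70 gave 1.85, 1.78, 1.08 and 1.61, and the ranges 11 to 20 and 21 to 30 gave 1.0 and 1.10, while those above 70 gave -0.02 to 0.46. mt-Ti was higher in 8 of 11 ranges (-0.26 to 1.34), with its highest differences, 1.06 and 1.34, in the ranges 51 to 60 and 61 to 70. mt-Tw was higher in 8 ranges (-0.32 to 0.61) and mt-Tg in 8 (-0.75 to 0.73). What the numbers stand for is not given in the labels. With ranges within each diet as a random effect in limma-voom, the log2 fold change of mt-Tm was 0.89 ± 0.14 (FDR 1.29e-05), and mt-Ti had an FDR of 0.390. That fit takes a single correlation within ranges for all genes (0.042). The mean log2(CPM + 1) of mt-Tm in HFD embryos ran from 2.67 to 4.69 between ranges. Its own spread between ranges may therefore not be fully in the SE and FDR.

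**Figure D5:**
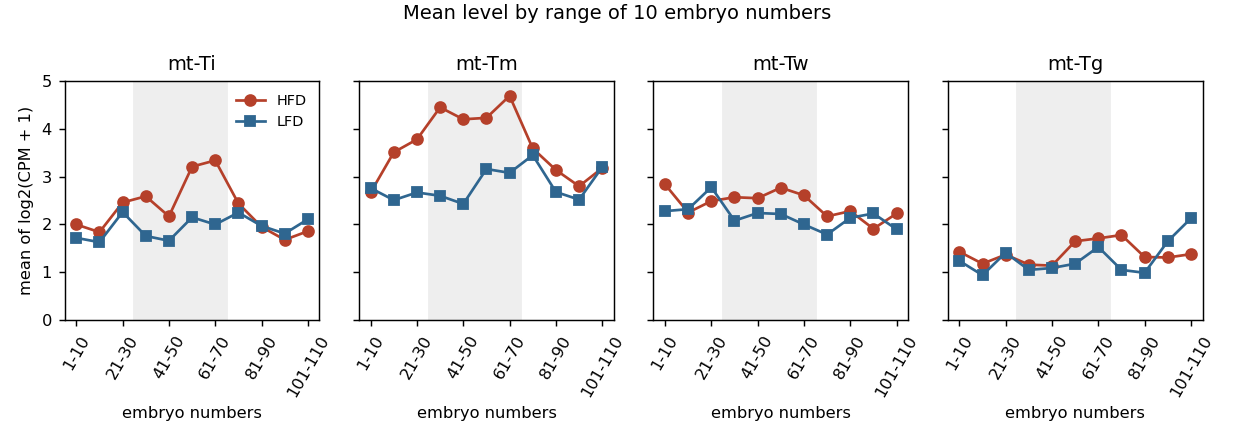
Mean level as log2(CPM + 1) (y axis) of HFD (red circles) and LFD embryos (blue squares) in each range of 10 embryo numbers (x axis) for the 4 tested tRNA genes; grey marks numbers 31 to 70. For mt-Tm the HFD line lies above the LFD line from 11 to 100, by 0.14 to 0.46 above 70, and meets it in the last range, and for mt-Tg the lines cross.

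Within each diet mt-Ti, mt-Tm and mt-Tw moved with their flanking mRNAs from embryo to embryo, as did mt-Tg with mt-Nd3. The relation of mt-Tg with mt-Co3 was weak and did not pass by rho in LFD embryos. Over log2(CPM + 1), Pearson's r of the 16 pairs of a tRNA gene and a neighbour ran from 0.212 to 0.646 and Spearman's rho from 0.120 to 0.569. These values share the library and its depth. By r the closest in HFD embryos was mt-Tm with mt-Nd2, at r = 0.646 and rho = 0.565 in HFD and r = 0.558 and rho = 0.569 in LFD embryos. In LFD embryos mt-Tw with mt-Nd2 (r = 0.593, rho = 0.492) and with mt-Co1 (r = 0.563, rho = 0.556) had a higher r. Each of these had a permutation p of 1e-05, the smallest that 100000 permutations can give, and adjusted values of 1.71e-05 for r and 1.85e-05 for rho over 48 relations. Without the 2 embryos farthest from the median of the mRNA, r was 0.604 in HFD and 0.539 in LFD embryos for mt-Tm with mt-Nd2, and in LFD embryos 0.581 and 0.557 for mt-Tw with mt-Nd2 and mt-Co1. In HFD embryos outside 31 to 70 r of mt-Tm with mt-Nd2 was 0.599. The weakest was mt-Tg with mt-Co3 in LFD embryos, at r = 0.212 (permutation p = 0.0354, adjusted p = 0.0362) and rho = 0.120 (permutation p = 0.239, adjusted p = 0.244). Without the 2 farthest embryos its r was 0.142. In HFD embryos outside 31 to 70 mt-Tg with mt-Co3 had r = 0.368 and rho = 0.182 (adjusted permutation p = 0.00107 and 0.1).

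Among the tRNA genes the closest relations were those with mt-Tq, the glutamine tRNA gene on the minus strand between mt-Ti and mt-Tm. mt-Ti and mt-Tm had r = 0.692 and rho = 0.643 in HFD and r = 0.479 and rho = 0.460 in LFD embryos, each with an adjusted permutation p of 1.85e-05 or less. mt-Tm with mt-Tq had r = 0.859 and rho = 0.862 in HFD and r = 0.779 and rho = 0.792 in LFD embryos, with the same adjusted p. The free window of mt-Tm takes in most bases of mt-Tq on the other strand, and its part in this correlation was not tested. mt-Tq itself had a level of 12.9 to 256 CPM in HFD and 10.4 to 86.5 in LFD embryos, with a log2 fold change of 0.87 ± 0.11 (FDR 2.64e-09) and, without embryos 31 to 70, of 0.24 ± 0.10 (FDR 0.306). mt-Tw with mt-Tm had r = 0.312 and rho = 0.276 in HFD embryos (permutation p = 0.00031 and 0.00215, adjusted p = 0.000425 and 0.00304) and r = 0.228 and rho = 0.169 in LFD embryos (permutation p = 0.0246 and 0.0956, adjusted p = 0.0262 and 0.1).

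The nuclear genes whose level was most like that of a tested tRNA gene were taken by Spearman's rho over all embryos, after the mean of each diet was removed, among 14795 nuclear genes. For mt-Tm these were Timm8b, a chaperone of the mitochondrial intermembrane space (0.425), Ube2k, a ubiquitin-conjugating enzyme (0.420), and Omt2b, an oocyte transcript (0.408). For mt-Ti they were Gm15564 (0.384), Qk, an RNA-binding protein (0.377), and Mbtd1, a chromatin protein (0.375). For mt-Tw they were Wdr26 (0.407), the ubiquitin ligase Siah2 (0.395) and the poly(A) polymerase Tent4a (0.390). For mt-Tg they were Snrpg, a core protein of the spliceosome (0.410), Gm12628 (0.379) and Cox6b2, a subunit of cytochrome c oxidase (0.378). Of these 12 genes, Ube2k (log2 fold change 0.12 ± 0.03, FDR 0.0126), Qk (0.29 ± 0.07, FDR 0.00609), Mbtd1 (0.17 ± 0.05, FDR 0.0333), Wdr26 (0.29 ± 0.07, FDR 0.00401) and Tent4a (0.18 ± 0.05, FDR 0.0256) were themselves higher in HFD embryos by edgeR. The correlations were low and share library depth, so they are given as a description.

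The enzymes that charge the 10 tRNAs are nuclear genes. All 10 aminoacyl-tRNA synthetases were tested and none was called in either direction by edgeR, by DESeq2 or by limma-voom, and none had an unadjusted p under 0.05 by edgeR, with a median log2 fold change of 0.02 (-0.20 to 0.30) against 0.01 over all tested genes. Mars2, which charges the methionine tRNA, had 53.7 ± 30 CPM in HFD and 54.2 ± 31.6 in LFD embryos, a log2 fold change of 0.01 ± 0.13 (FDR 0.987 by edgeR). Iars2, for isoleucine, had 0.02 ± 0.14 (FDR 0.976). Rars2, for arginine, had 3.03 ± 3.27 and 3.55 ± 3.87 CPM, a log2 fold change of -0.20 ± 0.28 (FDR 0.841). Lars2, for leucine, had the highest level at 252 ± 117 and 246 ± 86.2 CPM, and Wars2, for tryptophan, the lowest at 1.95 ± 2.92 and 2.12 ± 2.25.

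Of 24 genes listed for the processing or modification of mitochondrial RNA 23 were tested, and 2 were called. Both were called higher in HFD embryos, as were 1.26% of all tested genes. The median log2 fold change of the list was 0.06. Trnt1, the enzyme that adds the CCA end which the genes printed above lack, had 99.2 ± 30.4 CPM in HFD and 88.8 ± 24.1 in LFD embryos, a log2 fold change of 0.19 ± 0.06 (FDR 0.0370). Angel2, a phosphatase of RNA ends, had a log2 fold change of 0.16 ± 0.05 (FDR 0.0477). Without HFD embryos 31 to 70 neither was called, at 0.13 ± 0.06 (FDR 0.330) and 0.06 ± 0.05 (FDR 0.762), and Yrdc, an enzyme of the tRNA modification t6A, was called lower there. With ranges of numbers within each diet as a random effect in limma-voom neither was called (FDR 0.181 for Trnt1 and 0.187 for Angel2), and with library sizes from nuclear genes or from filtered genes Angel2 had an FDR of 0.0518 and 0.0704. Trmt10c, a subunit of mitochondrial RNase P, had 0.22 ± 0.07 and an FDR of 0.0541 by edgeR. It was called higher by DESeq2, without a filter on low counts, and with the macrophage marker level as a covariate. In these fits 3.12%, 15.4% and 1.86% of all tested genes were called. Elac2, the 3′ nuclease, had -0.02 ± 0.10 and an FDR of 0.976 by edgeR. Nsun3, which methylates the anticodon of the methionine tRNA, had -0.03 ± 0.06 with an FDR of 0.903, and Mtfmt, which formylates methionine on it, 0.01 ± 0.15 with an FDR of 0.987.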

How the data were processed

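Single-embryo libraries were made by Smart-seq2 and sequenced in paired reads. Per the file headers, the submitters' processing notes and the study's methods, the authors trimmed adaptors with Trim Galore 0.6.6, aligned reads with STAR 2.7.10a to GRCm38 carrying the mitochondrial sequence of the ST line, and counted with featureCounts 2.0.3 over exons of Ensembl 102 genes. The strand setting was 2, alignment of both ends was required, and the reads of a pair were counted singly. The deposited values are raw counts per gene, with no normalization. Coordinates are those of the count table (GRCm38), and whether they match the ST sequence base for base was not tested. All sample columns were used, and groups were taken from the diet in the titles and labels.

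Counts were tested with edgeR 4.0.16 (quasi-likelihood, TMM, filterByExpr by diet, Benjamini-Hochberg adjustment over all 14820 tested genes, FDR threshold 0.05) in R 4.3.3. Log2 fold changes are HFD over LFD. CPM are counts in each 1000000 of an embryo's counts, computed here, with 1 added before log2. Ratios, shares and correlations were computed with Python 3.11.15, numpy 2.4.6, pandas 2.3.3 and scipy 1.17.1, with permutation tests of 100000 permutations and Fisher's exact test, and figures with matplotlib 3.10.9. Alternatives used DESeq2 1.42.0, limma 3.58.1 (voom), other library sizes, filters, covariates, pseudocounts and left-out embryos. The edgeR, limma-voom and permutation tests were checked on simulated data with independent embryos. That check holds no clustering by sire, date or embryo number. Total counts per embryo ran from 1937251 to 17246791, and since PCR copies were not marked by identifiers, error was taken from the spread between embryos and not from the counts. Among the 50 most similar pairs of embryos the lowest chi-square per gene was 14.3, and no pair was merged.

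The tRNA genes, the lists of synthetases and processing genes, the markers and the tests were chosen with earlier results of these data known. Named are the 10 tRNA genes, their neighbours and synthetases, the 2 processing genes with the smallest p and any called, and for each tested tRNA gene the 3 nuclear genes with the highest rho; Trmt10c, Elac2, Nsun3, Mtfmt and Yrdc were added after their values were seen. Cumulus and granulosa markers summed to 0 to 57.78 CPM and sperm markers to 0 to 18.75 CPM per embryo.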

Additional observations from a re-analysis of the deposited data

How the results depend on the processing

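mt-Tm was called higher in HFD embryos in all 12 alternatives, at log2 fold changes of 0.57 to 1.01. mt-Ti was not called with limma-voom (FDR 0.138), with limma-voom and ranges of 10 numbers (FDR 0.0963) or ranges within each diet (FDR 0.390, chosen after seeing the data) as a random effect, or without HFD embryos 31 to 70 (FDR 0.730), so that 1 of the 4 tested genes was called there in place of 2; mt-Tw and mt-Tg were called in none, and DESeq2 gave mt-Tg no adjusted p. The number of all genes called was 318, of which 58.5% were higher, and it was 7030 without a filter (70.3% higher), 175 without HFD embryos 31 to 70 (34.3% higher), 546 without embryos under 15000 genes and 86 with ranges within each diet. Of the 20 ratios 6 passed, and 5 to 8 did with 1 added to counts (8), without embryos under 15000 genes (7), without HFD embryos 31 to 70 (5) and with labels permuted within number ranges (5). Ratios that passed only in such a setting were mt-Td to mt-Co1 (-0.25, adjusted p = 0.0451) and mt-Th to mt-Nd5 (-0.23, adjusted p = 0.0451) with 1 added, mt-Th to mt-Nd5 without embryos under 15000 genes (-0.24, adjusted p = 0.0404) and mt-Tk to mt-Co2 without HFD embryos 31 to 70 (-0.36, adjusted p = 0.0190), all by permutation. Of the 20, 3 passed when only embryos with a count of the tRNA were used (both of mt-Tm, and mt-Tl2 to mt-Nd4 at -0.43, which did not pass otherwise; mt-Tk and mt-Th had too few embryos) and 3 when counts were summed over a diet (chosen after seeing the data). The cause of these changes was not tested, other than that fewer embryos or more genes entered some fits.

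Ratios that did not pass and changed sign were those of mt-Ti to mt-Nd1 without HFD embryos 31 to 70 (-0.24), and, with labels permuted within number ranges, mt-Ti to mt-Nd2 (0.03), mt-Tw to mt-Co1 (0.00), mt-Tg to mt-Nd3 (0.03) and mt-Ts2 to mt-Nd5 (0.07). With counts summed, mt-Ti to mt-Nd2 (0.11), mt-Td to mt-Co1 (0.08) and mt-Co2 (0.11), mt-Tk to mt-Co2 (0.43) and mt-Ts2 to mt-Nd4 (0.33) and mt-Nd5 (0.46) changed sign, as did, past the threshold in the main test, mt-Tk to mt-Atp8 (0.23). Among embryos with a count it was mt-Ti to mt-Nd2 (0.02) and mt-Ts2 to mt-Nd4 (0.07) and mt-Nd5 (0.27), and without embryos under 15000 genes mt-Ts2 to mt-Nd5 (0.00).

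Diets share 94 embryo numbers, whose meaning the labels do not give. They were not taken as pairs: the correlation of the deviations of same-numbered embryos had a median of 0.011, 20 of 94 were above 0.1, and 1 HFD embryo correlated best with its own number. With the number as a replicate block in limma-voom 1 tRNA gene and 343 of all genes were called, with mt-Tm at 0.90 (FDR 1.09e-07) and mt-Ti at 0.41 (FDR 0.126). In the paired test of ratios within shared numbers 5 of 20 passed, mt-Tr to mt-Nd3 did not (-0.44, adjusted p = 0.192), and mt-Ti to mt-Nd2 (0.09), mt-Tw to mt-Co1 (0.04), mt-Tg to mt-Nd3 (0.07) and mt-Ts2 to mt-Nd5 (0.11) changed sign. Low counts kept 6 of the 10 genes out of the filtered fit.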
